A study of Mus musculus with 12 samples.

Results

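Genes of the extracellular matrix and of its integrin receptors were examined in the hypothalamus of obese mice given celastrol or withaferin A. The members were the genes named as collagens, laminin chains, integrin subunits with a numbered name, matrix metalloproteinases, ADAMTS proteases and tissue inhibitors of metalloproteinases, together with 11 further genes from fibronectin (Fn1) to tenascin R (Tnr) where an array value existed. Of 19938 genes with a probe set of their own on the array, 133 were members. Signals are log2 values, and genes with a mean over the 12 arrays below 5.81, the 25th percentile, were not tested as too dim. That left 117 members among 14953 tested genes. The 16 dim members were Mmp1a, Mmp1b, Mmp3, Mmp7, Mmp8, Mmp12, Mmp13, Mmp19, Mmp20, Mmp21, Mmp27, Col10a1, Col28a1, Itga2, Itgb6 and Itgb3bp. The name rule also took in 3 integrin-binding proteins that are no integrins, Itgb1bp1, Itgb1bp2 and Itgb3bp, and passed over integrin subunits named by a letter, such as Itgav.

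All animals were male C57BL/6J mice, 23 weeks old, fed a diet with 45% fat from 3 weeks of age for 20 weeks, and no lean or untreated group was analysed here. All received intraperitoneal DMSO on 4 days. Over the next 4 days the DMSO group went on with DMSO, a second group received celastrol at 100 µg/kg a day, and the last group received withaferin A at 2 mg/kg a day. Celastrol is a triterpenoid and withaferin A a steroidal lactone, both from plants, and their doses differed. Each group held 4 arrays, labelled as biological replicates, and the labels do not say whether an array stands for 1 animal or for a pool.

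The extracellular matrix is the network of secreted proteins and proteoglycans between cells. In the brain it is dominated by hyaluronan and the lecticans that bind it, while collagens, laminins, nidogens and perlecan are concentrated in vascular basement membranes and the meninges. Integrins are receptors of an alpha and a beta chain that bind these proteins and link them to the cytoskeleton. Matrix metalloproteinases and ADAMTS proteases cut the matrix, and TIMPs inhibit them.

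Of 12 listed hypothalamic genes, 11 were on the array and all 11 were above the dim limit. So were all 6 listed thalamus genes, and most genes pass this limit, so it does not test the tissue label. Array medians lay between 6.89 and 6.98, and correlations between arrays between 0.981 and 0.994. The mean over the thalamus genes varied within each group, at 8.92 to 10.07 with DMSO, 9.29 to 10.21 with celastrol and 9.10 to 10.04 with withaferin A. The part of this variation in the member values was not tested. A pair of arrays stood apart on single transcripts. Celastrol replicate 2 carried pituitary transcripts, with growth hormone (Gh) at 10.96 and prolactin (Prl) at 9.80, against at most 7.98 and 6.08 on the other 11 arrays. Withaferin A replicate 1 had Lcn2 at 9.31 and Zbtb16 at 11.01, against at most 7.07 and 10.15 on the other withaferin A arrays. The celastrol arrays read 9.59 to 10.83 for Lcn2 and 10.70 to 11.17 for Zbtb16, and the DMSO arrays at most 7.30 and 9.23. Leading member differences are also given without celastrol replicate 2 and withaferin A replicate 1. Both comparisons with DMSO used the same 4 DMSO arrays.

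Celastrol was compared with DMSO to find genes whose hypothalamic transcript level differed after treatment. Fn1, which encodes the adhesive glycoprotein fibronectin, and Adamts9, which encodes a secreted protease that cuts lecticans, were higher with celastrol, by 1.70-fold and 1.65-fold. These were 2 of 117 tested members past an adjusted p of 0.05, both higher, where 0.769% of all 14953 genes passed in either direction and 0.455% passed as higher. No member passed as lower, against 0.314% of all genes. Of the 42 tested collagens, the 10 laminin chains, the 19 integrin subunits, the 11 metalloproteinases and the 4 TIMPs, 0 passed in either direction. At an unadjusted p under 0.05 stood 13 members, or 11.1%, against 10.4% of all genes, and the members' median log2 difference was −0.02, the same as over all tested genes; 41.9% of members and 42.6% of all genes lay above 0.

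Fn1 (probe set 10355403) stood at 9.29, 9.23, 9.21 and 9.17 on the 4 DMSO arrays. With celastrol its log2 signal was 9.88, 10.29, 10.19 and 9.60. With withaferin A it was 9.36, 9.15, 9.37 and 8.97. Every celastrol array was above every DMSO and every withaferin A array, while the withaferin A and DMSO arrays overlapped. The celastrol arrays were also more scattered, with an SD of 0.31 against 0.05 with DMSO and 0.19 with withaferin A. Fn1 rose by 0.76 ± 0.13 (SE, n = 4 per group; 95% interval 0.48 to 1.04), with an adjusted p of 0.0199 by limma. The rise was 0.66 with an adjusted p of 0.0427 without celastrol replicate 2 and withaferin A replicate 1. When arrays were left out singly, rises lay between 0.66 and 0.89. The adjusted p was above the threshold on omission of DMSO replicates 1, 2 or 4 (0.0572, 0.0691 and 0.0671) and of celastrol replicates 2 or 3 (0.0652 and 0.0725).

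Mean signals of 4 of the marker lists did not overlap between the celastrol and DMSO arrays, although few of their genes passed the test. The means of all other lists examined, from pericytes to thalamus, overlapped. In bulk tissue, fewer cells of a type and less RNA per cell cannot be told apart. The mean over the endothelial list, of which 11 of 12 genes were on the array and all 11 above the dim limit, ranged from 7.92 to 8.07 with celastrol, from 8.11 to 8.22 with DMSO and from 7.94 to 8.13 with withaferin A, and 1 of the 11 passed the test for celastrol. The oligodendrocyte mean, over 9 of 10 listed genes, was 10.41 to 10.46 with celastrol and 10.53 to 10.64 with DMSO, and 1 of the 9 passed. With withaferin A it was 10.37 to 10.53. The astrocyte mean, over all 8 listed genes, was 10.48 to 10.55 with celastrol and 10.56 to 10.62 with DMSO, and 0 of the 8 passed. Withaferin A arrays had an astrocyte mean of 10.43 to 10.57. The pituitary list had 6 of 7 genes on the array, Tshb and Fshb among them too dim, and 0 of its 4 tested genes passed. Its mean was 7.19 to 9.80 with celastrol, 6.41 to 7.0 with DMSO and 6.74 to 7.29 with withaferin A. The leptomeningeal fibroblast mean overlapped, at 7.45 to 7.70 with celastrol and 7.48 to 7.61 with DMSO, with 1 of 10 genes (Lum) dim. The part of these shifts in the results for Fn1, Adamts9 and the other members was not tested.

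**Figure D1:**
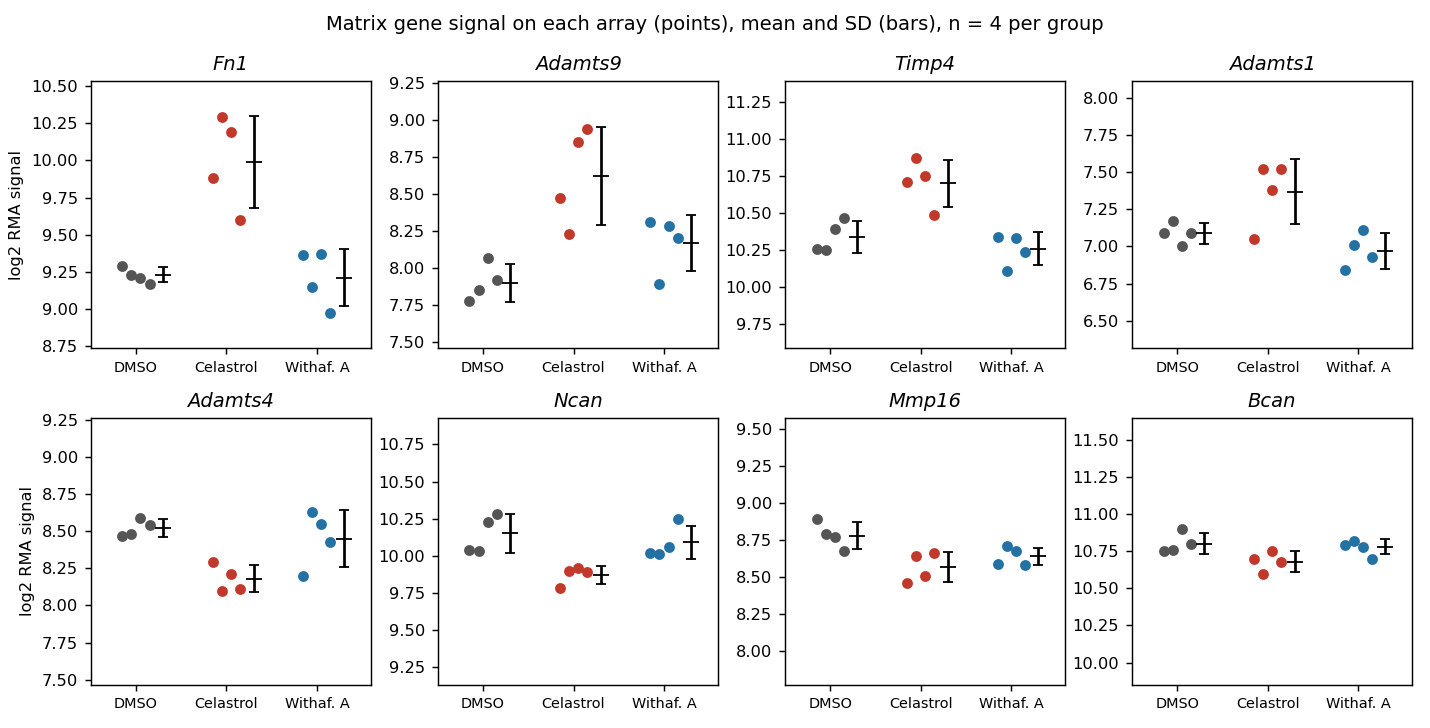
Log2 RMA signal of 8 matrix genes on each of the 12 arrays (points) with the mean and SD of each group of 4 (bars). The axes do not start at 0, and all panels span the same width of log2 signal, each around its own centre. Celastrol arrays lie above all DMSO arrays for Fn1, Adamts9 and Timp4 and below all of them for Adamts4, Ncan, Mmp16 and Bcan, and only Fn1 and Adamts9 passed the adjusted test.

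The ADAMTS proteases that cut lecticans (the hyalectans) held the other call. Adamts9 (probe set 10546430) stood at 7.78, 7.85, 8.07 and 7.92 with DMSO. With celastrol it was 8.47, 8.23, 8.85 and 8.94. With withaferin A it was 8.31, 7.89, 8.28 and 8.20. All celastrol arrays were above all DMSO arrays, and the withaferin A arrays overlapped both groups. Adamts9 rose by 0.72 ± 0.14 with celastrol (SE, n = 4 per group; 95% interval 0.42 to 1.02), with an adjusted p of 0.0381 by limma. The rise was 0.85 with an adjusted p of 0.012 without celastrol replicate 2 and withaferin A replicate 1. Leaving out 1 array at a time gave rises of 0.61 to 0.85. The adjusted p was above the threshold on omission of any of DMSO replicates 1 to 4 (0.119, 0.124, 0.0542 and 0.0974) and of celastrol replicates 1, 3 or 4 (0.0574, 0.118 and 0.0802), and also with no filter on dim genes (0.0575).

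Adamts9 was covered by 6 probe sets, which share a transcript and an RNA sample and are no replicates of one another. The celastrol mean was above the DMSO mean on all 6, by 0.40 to 1.24, and on all 6 the celastrol arrays did not overlap the DMSO arrays. Of all tested genes, at 1 probe set each, 2.71% were higher with celastrol without overlap. The largest difference was on probe set 10546432, where the DMSO arrays read 6.58, 6.02, 6.66 and 6.79 and the celastrol arrays 7.49, 7.51, 7.93 and 8.11. When each of the 35556 probe sets was tested on its own, only 5 passed for celastrol versus DMSO by limma. Among these was probe set 10546450 of Adamts9, at 0.80 ± 0.10 with an adjusted p of 0.037. The other 5 probe sets of Adamts9 did not pass. With the 6 probe sets averaged within each array, the rise was 0.71 ± 0.09 with an adjusted p of 0.00979. The withaferin A mean was likewise above the DMSO mean on all 6, by 0.09 to 0.45. Past the threshold were 0 of the 6, as of all 35556 probe sets. On 3 of the 6 the arrays did not overlap, beside 2.91% of all genes higher without overlap.

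**Figure D2:**
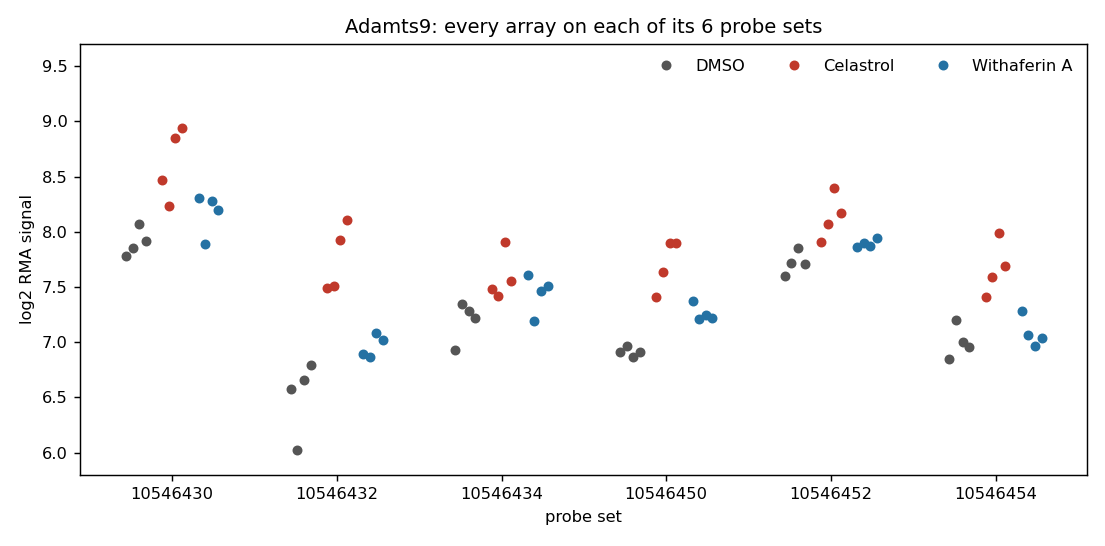
Log2 RMA signal of Adamts9 on each of its 6 probe sets, with 1 point per array and the 3 groups side by side; signals of different probe sets are not on a common scale. On each probe set the 4 celastrol points lie above the 4 DMSO points, with mean differences of 0.40 to 1.24.

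Promoter windows from RefSeq (assembly GRCm38.p6; 250 bases before and 50 bases after the annotated start) matched 97 of the 133 members. The windows of Adamts9, of its relative Adamts1 and of Timp4, the TIMP with the largest difference, are shown because, beside Fn1, these had the largest celastrol differences upward. All 3 genes lie on the minus strand, at chr6:92943485-92943784 for Adamts9, chr16:85803064-85803363 for Adamts1 and chr6:115252156-115252455 for Timp4. Capitals mark every match, on either strand, to the GC box GGGCGG, the AP-1 motif TGANTCA, the STAT motif TTCNNNGAA or the glucocorticoid receptor half-site AGAACA.
Adamts9: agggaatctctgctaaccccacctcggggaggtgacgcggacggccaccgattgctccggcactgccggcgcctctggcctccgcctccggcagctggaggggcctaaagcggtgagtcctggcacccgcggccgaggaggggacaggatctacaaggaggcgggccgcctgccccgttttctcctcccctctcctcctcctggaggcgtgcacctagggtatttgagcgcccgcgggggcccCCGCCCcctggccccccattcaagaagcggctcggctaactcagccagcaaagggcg
Adamts1: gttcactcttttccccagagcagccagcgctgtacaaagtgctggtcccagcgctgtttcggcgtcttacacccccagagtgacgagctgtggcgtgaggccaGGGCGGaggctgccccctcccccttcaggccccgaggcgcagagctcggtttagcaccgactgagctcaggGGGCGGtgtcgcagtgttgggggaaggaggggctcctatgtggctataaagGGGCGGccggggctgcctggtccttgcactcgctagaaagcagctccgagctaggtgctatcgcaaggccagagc
Timp4: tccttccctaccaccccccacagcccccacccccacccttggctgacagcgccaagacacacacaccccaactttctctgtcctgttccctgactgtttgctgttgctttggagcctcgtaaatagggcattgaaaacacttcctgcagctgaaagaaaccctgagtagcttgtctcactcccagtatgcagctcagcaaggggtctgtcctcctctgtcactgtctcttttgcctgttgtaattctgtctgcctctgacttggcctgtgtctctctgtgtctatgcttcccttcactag
The capitals in Adamts9 are 1 GC box and those in Adamts1 are 3, while none of these letters were found in the Timp4 window. A GC box was in 35.7% of all 32851 promoter windows and in 53.3% of the 107 windows of members. The other motifs were in 19.0% of all windows for the half-site, 8.3% for STAT and 7.81% for AP-1, and in 15.9%, 6.54% and 10.3% of the members' windows. These are descriptions of letters in a window, and nothing was measured about binding.

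Among the other lectican-cutting proteases, Adamts1 was 7.09, 7.17, 7.0 and 7.09 with DMSO and 7.05, 7.52, 7.38 and 7.52 with celastrol. Of the celastrol arrays, 3 were above all DMSO arrays and replicate 1 was among them. The difference was 0.28 ± 0.10 and did not pass (adjusted p = 0.254 by limma), and without celastrol replicate 1 it was 0.39 with an adjusted p of 0.0419. Without celastrol replicate 2 and withaferin A replicate 1 it was 0.23 (adjusted p = 0.445). Adamts4, an aggrecanase, read 8.47, 8.48, 8.59 and 8.54 with DMSO and 8.29, 8.10, 8.21 and 8.11 with celastrol. All celastrol arrays were below all DMSO arrays. The difference of −0.34 ± 0.08 did not pass (adjusted p = 0.0871), but it did with the filter at the 50th percentile (0.0486), an intensity trend in the prior (0.0409), weights for arrays (0.0477), a fit to the 2 groups only (0.0245) and without withaferin A replicate 1 (0.0206). Adamts20 differed by 0.17 ± 0.06 with an adjusted p of 0.317. The 7 tested members of this group had a median difference of 0.06 and ran from −0.34 to 0.72.

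Of the inhibitors, Timp4 (probe set 10547022) was 10.26, 10.25, 10.39 and 10.47 with DMSO. With celastrol it was 10.71, 10.87, 10.75 and 10.49, and with withaferin A 10.34, 10.11, 10.33 and 10.24. Each celastrol array was above each DMSO array, and the lowest celastrol array, replicate 4 at 10.49, was just above the highest DMSO array, replicate 4 at 10.47. The difference was 0.36 ± 0.08 (95% interval 0.18 to 0.54) with an adjusted p of 0.0713, which did not pass. It passed with the filter at the 50th percentile (0.038), the intensity trend (0.0196), array weights (0.0235) and without celastrol replicate 4 (0.0302). Without celastrol replicate 2 and withaferin A replicate 1 it was 0.31 with an adjusted p of 0.16. Timp1, Timp2 and Timp3 differed by −0.18 ± 0.09, −0.07 ± 0.05 and 0.04 ± 0.06, with adjusted p of 0.546 to 0.885.

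The lecticans are the chondroitin sulfate proteoglycans that bind hyaluronan in brain matrix and are substrates of these proteases. Neurocan (Ncan) read 10.04, 10.03, 10.23 and 10.28 with DMSO and 9.78, 9.90, 9.92 and 9.89 with celastrol. Brevican (Bcan) read 10.75, 10.76, 10.90 and 10.80 with DMSO and 10.70, 10.60, 10.75 and 10.68 with celastrol. For both, the celastrol arrays did not overlap the DMSO arrays, by under 0.01 for Bcan. Neither difference passed, at −0.27 ± 0.07 for Ncan (adjusted p = 0.127 by limma) and −0.12 ± 0.05 for Bcan (0.438), although that of Ncan passed with the intensity trend (0.0422). Astrocyte and oligodendrocyte marker means were also lower on the celastrol arrays, as given above, and their part in these values was not tested. Versican (Vcan) and aggrecan (Acan) differed by 0.16 ± 0.08 and 0.06 ± 0.08, and the Acan value was −0.02 without DMSO replicate 1.

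No collagen, laminin chain or basement membrane linker passed with celastrol. The 11 fibrillar collagens, which form tensile fibres, had differences of −0.11 to 0.11 with a median of −0.04. The main fibrillar chains were Col1a1 at 7.39, 7.67, 7.86 and 7.62 with DMSO and 7.73, 7.67, 7.64 and 7.54 with celastrol, and Col3a1 at 6.78, 6.88, 6.93 and 6.73 with DMSO and 6.86, 6.88, 6.93 and 6.50 with celastrol. Both groups overlapped, and the differences of 0.01 ± 0.09 and −0.04 ± 0.10 were within the replicate spread. The basement membrane chains Col4a1 and Col4a2 differed by 0.13 ± 0.07 and 0.09 ± 0.07. Of the 9 FACIT collagens, which decorate fibrils, 1 lay above 0, and the fibril-associated Col14a1 was 6.51, 6.49, 6.57 and 6.66 with DMSO and 6.24, 6.48, 6.34 and 6.36 with celastrol. These arrays did not overlap, and the difference was −0.20 ± 0.07 with an adjusted p of 0.292. In all, 13 of 42 collagens lay above 0, against 46.5% of all genes in the dimmer part of the signal range, which held 41 of the 42. Without DMSO replicate 3 it was 24 of 42.

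Of the laminin chains, which polymerise into the basement membrane sheet, Lama4 of the vascular laminins differed most, by −0.21 ± 0.07 (adjusted p = 0.254). The ranges of its arrays, 6.21 to 6.54 with DMSO and 6.11 to 6.30 with celastrol, overlapped. Lama2, Lamb1 and Lamc1 differed by 0.05 to 0.07. The linkers nidogen 1 (Nid1) and perlecan (Hspg2) differed by 0.04 ± 0.08 and −0.02 ± 0.06. Sparc, a collagen-binding secreted glycoprotein, and the tenascins Tnc and Tnr differed by −0.05 ± 0.05, −0.10 ± 0.09 and −0.03 ± 0.05.

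Integrin subunits did not pass in either direction with celastrol. Itga1, the alpha chain of a collagen receptor, was 7.02, 7.15, 6.94 and 7.08 with DMSO and 7.20, 7.15, 7.25 and 7.39 with celastrol. The groups met at 7.15, and the difference was 0.20 ± 0.06 with an adjusted p of 0.211. Itga6, the alpha chain of a laminin receptor, was 8.23, 7.93, 7.83 and 8.09 with DMSO, 7.57, 8.04, 7.64 and 7.76 with celastrol, and 7.33, 7.73, 7.92 and 7.81 with withaferin A. Its arrays overlapped in every pairing of groups, and the celastrol difference was −0.27 ± 0.13 with an adjusted p of 0.511. Itga5, the alpha chain of the classical fibronectin receptor, differed by 0.09 ± 0.11 and its partner Itgb1 by −0.02 ± 0.06, the latter with a 95% interval of −0.15 to 0.11. The leukocyte chain Itgb2 and the vitronectin receptor chain Itgb3 differed by 0.05 ± 0.09 and −0.14 ± 0.08. Itgav, the letter-named partner of several beta chains, differed by 0.14 ± 0.06 (adjusted p = 0.387).

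Of the metalloproteinases, only 11 of 22 members were above the dim limit, 5 of 16 secreted and all 6 membrane-anchored ones. The membrane-anchored Mmp16 was 8.89, 8.79, 8.77 and 8.68 with DMSO and 8.46, 8.64, 8.51 and 8.66 with celastrol. These arrays did not overlap, by 0.02, and the difference was −0.21 ± 0.06 with an adjusted p of 0.18. The gelatinases Mmp2 and Mmp9 differed by −0.13 ± 0.09 and −0.10 ± 0.10, and Mmp14, a membrane-anchored collagenase that activates Mmp2, by 0.05 ± 0.08. Over all members, 3 did not overlap and were higher with celastrol (2.56%, against 2.71% of all genes), and 6 did not overlap and were lower (5.13%, against 4.5%). The 3 were Fn1, Adamts9 and Timp4, and the 6 were Adamts4, Ncan, Bcan, Col14a1, Mmp16 and Mmp28, the last named here after its values were seen.

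**Figure D3:**
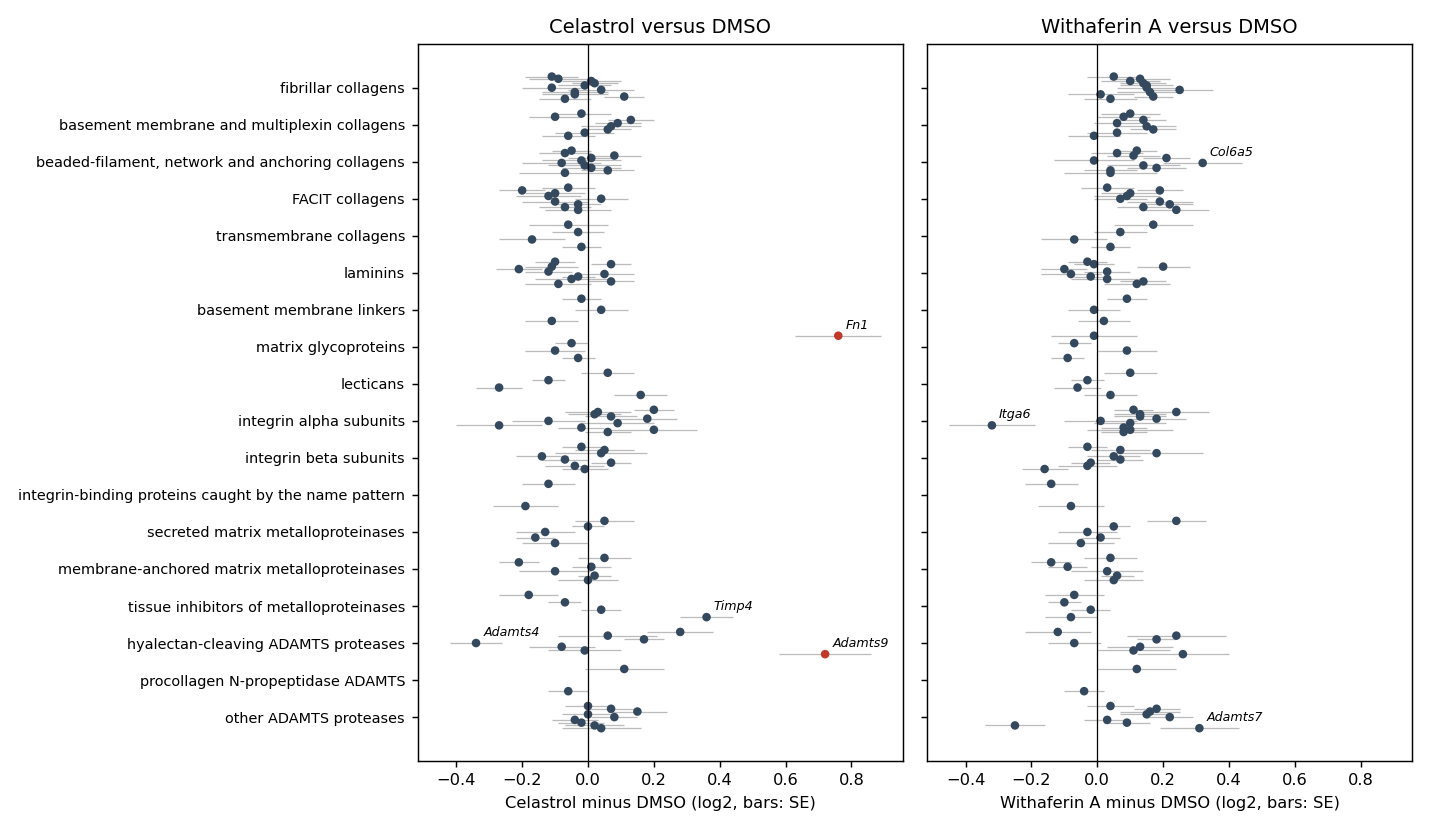
Log2 difference from DMSO of the 117 tested members by role, for celastrol (left) and withaferin A (right); points are fitted differences, bars the SE (n = 4 per group), and red points passed an adjusted p of 0.05. Fn1 at 0.76 and Adamts9 at 0.72 with celastrol are the 2 that passed, and no member passed with withaferin A.

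The same question was asked of withaferin A against the shared DMSO arrays. No member passed, and neither did any of the 14953 genes (0%) by limma, with 19 members (16.2%) and 2352 genes (15.7%) at an unadjusted p under 0.05. The members were nevertheless not spread evenly around 0: 84 of 117 (71.8%) lay above 0, against 48.5% of all genes. Collagens were 39 of these 84: 39 of 42 lay above 0, with a median difference of 0.12, and 33 of 42 under each of the other scalings tried. The tilt varied with signal strength on the arrays, over all genes as over members.

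All tested genes were divided by mean signal into 4 classes of equal size. In the dimmest class, which held 58 of the 117 members, the median withaferin A difference was 0.08 over all genes and 0.09 over members, and in the next it was 0.01 over all genes and 0.09 over its 38 members. In the upper classes the medians over all genes were −0.03 and −0.04, and those over the 11 and 10 members were −0.02 and −0.07. For celastrol the corresponding medians over all genes lay between −0.02 and 0. Of the 7477 genes in both dimmer classes, 62.9% lay above 0 with a median of 0.04, against 92.7% and 0.12 for the 41 collagens among them. With quantile normalization applied once more, 33 of 42 collagens lay above 0, with a median of 0.08, and the dimmer genes had a median of 0. With arrays centred on their medians it was also 33 of 42, with a median of 0.07 against 0, and 68 of 117 members lay above 0.

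**Figure D4:**
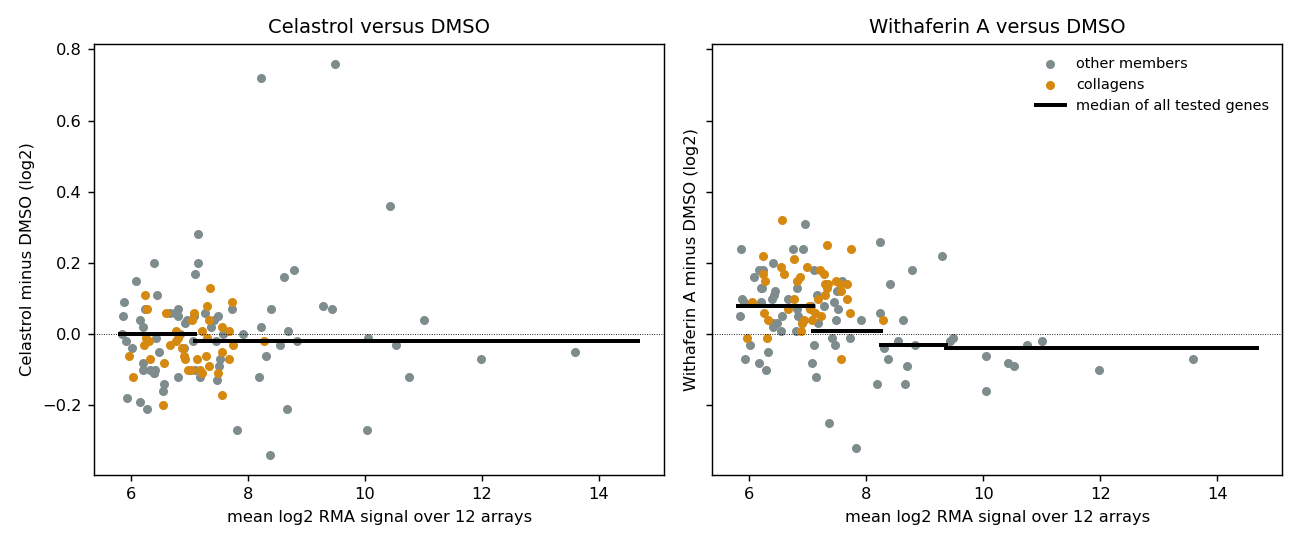
Log2 difference from DMSO of each tested member against its mean log2 signal over 12 arrays, for celastrol (left) and withaferin A (right); orange points are collagens, and black lines are the median of all tested genes in each of 4 signal classes. With withaferin A the all-gene median falls from 0.08 in the dimmest class to −0.04 in the brightest, and the collagens lie at the dim end.

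The collagens also differed between arrays of 1 group. Relative to the DMSO mean, the average of the 41 collagens in both dimmer classes was −0.09, −0.01, 0.17 and −0.07 on the 4 DMSO arrays. It was 0.03, −0.04, 0.02 and −0.12 on the celastrol arrays and 0.11, 0.13, 0.01 and 0.23 on the withaferin A arrays. DMSO replicate 3 was above 3 of the 4 withaferin A arrays, and withaferin A replicate 3 was within the DMSO range, so the groups overlapped. All genes of the dimmer signal range went the same way on the outlying arrays, at 0.05 on DMSO replicate 3 and 0.07 on withaferin A replicate 4. Their part in the collagen values was not tested. Without DMSO replicate 3, 42 of 42 collagens lay above 0 with a median of 0.17, beside 0.06 for the dimmer genes. In that omission 172 of 14953 genes passed (1.15%) and 2 of 117 members (1.71%), Col9a1 and Col6a3, with adjusted p of 0.0485 and 0.0474 by limma.

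**Figure D5:**
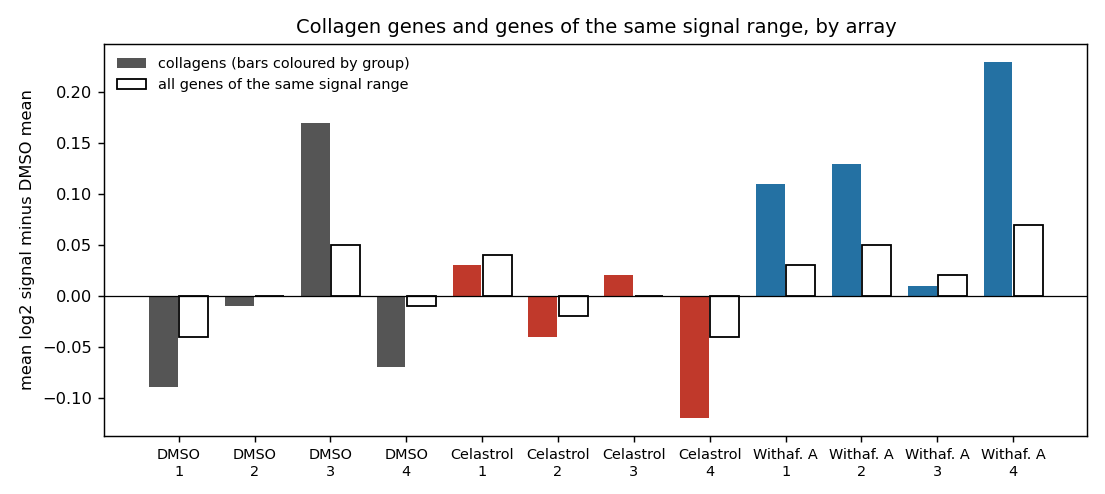
Mean log2 signal, relative to the mean of the 4 DMSO arrays, for genes in the dimmer part of the signal range on each array. Filled bars are the 41 collagens in that part and open bars all its 7477 genes. Replicate numbers are below the bars. The collagen mean is 0.17 on DMSO replicate 3 and from 0.01 to 0.23 on the withaferin A arrays.

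The members with the smallest p for withaferin A were proteases and collagens. Adamts17, an ADAMTS protease associated with fibrillin microfibrils, was 9.02, 9.33, 9.27 and 9.15 with DMSO and 9.47, 9.43, 9.37 and 9.36 with withaferin A. The groups did not overlap, and the difference was 0.22 ± 0.07 with an adjusted p of 0.202 by limma. Col9a1, a FACIT collagen of cartilage, was 6.10, 6.09, 6.38 and 6.09 with DMSO and 6.44, 6.39, 6.23 and 6.49 with withaferin A. Its groups overlapped through DMSO replicate 3 and withaferin A replicate 3, and the difference was 0.22 ± 0.07 (adjusted p = 0.214). The largest differences upward were 0.32 ± 0.12 for Col6a5, a type VI collagen chain, and 0.31 ± 0.12 for Adamts7, with adjusted p of 0.249 and 0.257. Downward they were −0.32 ± 0.13 for Itga6, −0.25 ± 0.09 for Adamts6 and −0.16 ± 0.07 for Itgb8, the beta chain of a receptor that activates latent TGF-beta, with adjusted p of 0.228 to 0.304. Col6a3, Col5a2, Adamts20, Adamts12 and the stromelysin Mmp10 differed by 0.17 to 0.24. No overlap was seen for 5 members higher with withaferin A (4.27%, against 2.91% of all genes) and for 0 members lower (against 4.69%).

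The members singled out with celastrol were also read with withaferin A. Fn1 differed from DMSO by −0.01 ± 0.13 (95% interval −0.29 to 0.27), a sign that turned with quantile normalization (0.03), and Adamts9 by 0.26 ± 0.14 (−0.04 to 0.57), with adjusted p of 0.971 and 0.379. Timp4 differed by −0.08 ± 0.08 and Adamts4 by −0.07 ± 0.08. Withaferin A replicate 1, the array with high Lcn2, had the lowest Adamts4 signal of its group, at 8.20 against 8.63, 8.55 and 8.43, and without celastrol replicate 2 and withaferin A replicate 1 the Adamts4 difference was 0.01.

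Withaferin A was set directly against celastrol, as given and at doses that differed, to ask which genes separated the treatments. No member passed, where 0.0468% of all genes did by limma (7 of 14953; 0.00669% as higher and 0.0401% as lower with withaferin A). At an unadjusted p under 0.05 stood 25 members, or 21.4%, against 16.1% of all genes, and 78.6% of members lay above 0, against 54.9%. In both dimmer signal classes, 94.8% and 73.7% of members lay above 0, against 73.1% and 59.2% of all genes. In the upper classes it was 63.6% and 20% of members, against 48.2% and 39.1%. Fn1, Timp4, Adamts1 and Adamts9 had lower means with withaferin A than with celastrol, and Col14a1, Lama3, Col6a5 and Col9a1 higher means.

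For Fn1 the withaferin A mean was below the celastrol mean by −0.78 ± 0.13 (95% interval −1.06 to −0.50). Its adjusted p of 0.0632 did not pass. It passed with the filter at the 50th percentile (0.0299), arrays centred on their medians (0.0395), the intensity trend (0.0464), array weights (0.0212), without celastrol replicate 4 (0.00597) and without withaferin A replicate 1 (0.0313). For Timp4 the difference was −0.45 ± 0.08 (adjusted p = 0.0713) and no arrays overlapped. It passed with the filter at the 50th percentile (0.0473), the intensity trend (0.027), array weights (0.0441), without celastrol replicate 4 (0.0238) and without withaferin A replicate 1 (0.049). Adamts9 differed by −0.45 ± 0.14 (adjusted p = 0.18), with withaferin A replicates 1 and 3 above celastrol replicate 2. Its difference was below 0 on all 6 probe sets, from −0.79 to −0.15. The arrays did not overlap on 3 of the 6, beside 5.35% of all genes lower without overlap. Of the 6, 0 passed, as of all 35556 probe sets. Adamts1 differed by −0.40 ± 0.10 (adjusted p = 0.117), and without celastrol replicate 1 by −0.50 with an adjusted p of 0.0383. Without celastrol replicate 2 and withaferin A replicate 1, none of these 4 passed, with differences of −0.72 for Fn1, −0.42 for Timp4, −0.63 for Adamts9 and −0.30 for Adamts1 and adjusted p of 0.0783, 0.125, 0.121 and 0.3.

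Col14a1 was 6.78, 6.81, 6.56 and 6.86 with withaferin A, and all of these were above the highest celastrol array at 6.48. The difference was 0.40 ± 0.07 (95% interval 0.24 to 0.56) with an adjusted p of 0.0713, and without withaferin A replicate 3 it was 0.46 with an adjusted p of 0.0351. Lama3, the alpha chain of an epithelial laminin, was 6.54, 6.65, 6.54 and 6.58 with withaferin A and 6.33, 6.06, 6.46 and 6.20 with celastrol. Its arrays did not overlap, and the difference was 0.31 ± 0.08 (adjusted p = 0.117). Adamts4 and Ncan were higher with withaferin A than with celastrol by 0.27 ± 0.08 and 0.21 ± 0.07, with adjusted p of 0.179 and 0.207, and the Adamts4 difference passed without withaferin A replicate 1 (0.36, adjusted p = 0.0496). In all, 10 members did not overlap and were higher with withaferin A (8.55%, against 3.92% of all genes), and 2 were lower (1.71%, against 5.35%). Of the 42 collagens, 40 lay above 0, with a median of 0.13. In the dimmer range, 95.1% of the 41 collagens and 66.1% of all genes lay above 0, the latter with a median of 0.05. Collagens above 0 were 37 after renewed quantile normalization and 36 with arrays centred on their medians.

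Other genes of the pathway were taken from a list of 121, covering integrin adaptors, collagen processing, other proteoglycans, hyaluronan partners, elastic fibre genes, TGF-beta ligands and receptors and other protease regulators. Of these 112 were on the array, 99 were tested and 0 passed in any of the 3 comparisons. At an unadjusted p under 0.05 stood 16 with celastrol (16.2%), 12 with withaferin A (12.1%) and 20 between the treatments (20.2%), beside the 10.4%, 15.7% and 16.1% of all genes. The smallest p with celastrol was that of Pcolce2, which enhances the cutting of procollagen. It was 8.37, 8.38, 8.43 and 8.28 with DMSO and 8.61, 8.56, 8.84 and 8.88 with celastrol. These did not overlap, and the difference was 0.36 ± 0.08 with an adjusted p of 0.0608 by limma. Ltbp4, which binds latent TGF-beta in the matrix, and Cspg5, a neural chondroitin sulfate proteoglycan, differed by −0.30 ± 0.07 and −0.26 ± 0.06, with adjusted p of 0.0816 and 0.0835. With withaferin A the smallest p were those of the syndecan Sdc2 at −0.31 ± 0.08, the TGF-beta receptor Tgfbr2 at 0.29 ± 0.08 and Adamtsl2 at 0.25 ± 0.07, with adjusted p of 0.163 to 0.181. These were not particular to withaferin A. The celastrol arrays read 9.47 to 9.80 for Sdc2, 8.20 to 8.57 for Tgfbr2 and 6.94 to 7.17 for Adamtsl2. The DMSO arrays read 9.67 to 9.92, 7.87 to 8.13 and 6.73 to 6.96.

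The spread between replicates bounded what could be seen. The pooled SD within groups had a median of 0.121 over the 117 members, from 0.0404 to 0.255, against 0.107 over all tested genes. In the dimmest signal class it was 0.139 for members and 0.152 for all genes, and in the brightest 0.0685 and 0.0751. Among members covered by several probe sets, the 16 of Adamts3 differed with celastrol by −0.16 to 0.14 and those of Adamts17 with withaferin A by 0.05 to 0.28 over 5 probe sets, with 0 called. The 2 probe sets of Col6a5 were unlike with withaferin A, at 0.32 and 0.06, and those of Col6a6 lay on either side of 0, at −0.19 and 0.14, again with 0 called.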

How the data were processed

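Total hypothalamic RNA was measured on 12 one-colour Affymetrix arrays, 4 per group. The deposited values are log2 signals of 35556 probe sets, made by the authors with RMA per the submitters' processing notes; its version is not given in the sources used here. Array values carry no counts, and precision is limited by how many arrays there were.

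Probe sets with 1 gene symbol in the array's annotation were kept (21789), with the one of highest mean per gene, and genes below the 25th percentile of mean signal (log2 5.81) were left out. Probe sets with several symbols (1621) or none (12146) were not used, so members measured only by those are not analysed here. All 133 members matched the RefSeq gene table, and 5 had several probe sets.

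A model with 1 mean per group was fitted across the 12 arrays in limma 3.58.1 (R 4.3.3; lmFit and eBayes, two-sided). P-values were adjusted by Benjamini-Hochberg over 14953 genes, with a threshold of 0.05, and SEs pool the spread of the 3 groups. The steps were tested on simulated data. The members and gene lists were chosen with earlier results of these data known. Named members were, in each comparison, those past the threshold, the 8 with the smallest p and the 3 with the largest difference in each direction, with 37 fixed genes and up to 3 related genes. Replicate numbers were checked for pairing by correlations between same-numbered arrays, which were −0.28 to 0.12, and the main fit did not use them. The closing section gives the alternatives, of which the omission of 2 arrays and the test of single probe sets were chosen after seeing the data. Plots were drawn with matplotlib 3.10.9.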

Additional observations from a re-analysis of the deposited data

Results flagged for a closer look

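In 153 groups of 4 arrays (51 members in 3 groups), 9 had an array far from the rest, where the gap to the nearest other array exceeded 0.829 of the group's range. Chance alone marks about 1 in 20 groups. Among collagens, Col9a1 was 6.38 on DMSO replicate 3 against 6.09 to 6.10 on the other DMSO arrays. Col3a1 was 6.50 on celastrol replicate 4 against 6.86 to 6.93, and Col5a2 was 6.37 on that array against 6.21 to 6.24. Col6a3 was 6.61 on celastrol replicate 2 against 6.73 to 6.75. Among proteases and their inhibitors, Adamts6 was 7.22 on celastrol replicate 2 against 7.52 to 7.57, and Adamts12 was 6.00 on DMSO replicate 1 against 6.18 to 6.22. Mmp14 was 7.30 on DMSO replicate 4 against 7.48 to 7.52, and Timp3 was 11.12 on celastrol replicate 4 against 10.98 to 11.01. The integrin chain Itgb3 was 6.86 on withaferin A replicate 1 against 6.53 to 6.58.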

How the results depend on the processing

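Results were recomputed under 23 alternatives. Values followed for single members kept their direction and their side of the threshold in 1419 recomputations, newly passed in 28, no longer passed in 13 and changed sign in 21. The cause of these shifts was not tested. For celastrol versus DMSO, 2 members and 115 genes were called. With no filter on dim genes, 1 of 133 members was called (0.752%, against 0.301% of all genes). The filter at the 50th percentile kept only 37 members, of which 4 were called (10.8%, against 1.42% of all genes). Of the 117 members of the main fit, 5 were called with an intensity trend and robust prior (4.27%, against 1.3%). Array weights gave 4 (3.42%, against 1.46%), and so did a threshold of 0.10 (3.42%, against 1.42%). With single arrays left out it was 0 to 3, the 3 without withaferin A replicate 1 (2.56%, against 1.38%). All genes called were 60 with no filter, 142 with the filter at the 50th percentile, 195 with the trend and 219 with array weights. They were 182 with the 2 groups only, 212 at 0.10, and 6 to 207 with single arrays left out. For withaferin A versus DMSO, all genes called were 0, but 8 with the trend, 21 with array weights, 8 at 0.10 and 0 to 172 with single arrays left out, and members 0 to 2 in the omissions, the 2 without DMSO replicate 3. The members' median was 0.07 over the 117 of the main fit and −0.01 over the 37 brighter members kept by the filter at the 50th percentile. For withaferin A versus celastrol, 0 members were called in the main fit. With the filter at the 50th percentile, 2 of the 37 kept were called (5.41%, against 0.13% of all genes). It was 2 of 117 with the trend or array weights (1.71%, against 0.194% and 0.127%). With arrays centred on their medians it was 1 (0.855%, against 0.0803%), at 0.10 it was 3 (2.56%, against 0.515%), and in the omissions 0 to 3. All genes called were 7, but 11 with no filter, 13 with the filter at the 50th percentile, 12 centred, 29 with the trend, 19 with weights, 0 with the 2 groups only, 77 at 0.10, 0 to 56 in the omissions and 17 without both celastrol replicate 2 and withaferin A replicate 1. The members' median for withaferin A versus celastrol was 0.09 over the 117 and 0.01 over the same 37 brighter members.

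Small differences changed sign. With celastrol, Col1a1 became 0 with arrays centred on their medians and Col3a1 became 0 with array weights, and without celastrol replicate 2 and withaferin A replicate 1 Col1a2 was −0.01 and Itga7 0.03. With withaferin A, Fn1 was 0.03 after renewed quantile normalization, and Adamts4 was 0.01 without the same 2 arrays. With single arrays left out, the celastrol differences ran from −0.07 to 0.08 for Col1a1, −0.02 to 0.08 for Col1a2, −0.02 to 0.11 for Acan, −0.04 to 0.00 for Itgb1, −0.05 to 0.03 for Itga7, −0.08 to 0.06 for Col3a1 and −0.06 to 0.03 for Hspg2, and the withaferin A differences from −0.07 to 0.07 for Fn1 and −0.13 to 0.01 for Adamts4.

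Of 12 pairs of same-numbered arrays in different groups, 2 had a correlation of deviations over 0.1, in a range of −0.28 to 0.12. These correlations cannot settle whether same-numbered arrays were handled together, which was not tested. With the replicate block, 54 genes were called for celastrol versus DMSO (0.361% of those tested). Among them were 2 members (1.71%), Fn1 and Adamts9, with adjusted p of 0.0228 and 0.0236 by limma. For withaferin A versus celastrol, 7 genes were called (0.0468%). Among them was 1 member (0.855%), Fn1, with an adjusted p of 0.0427.

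Arrays give no counts, and the spread between the 4 arrays of a group limits what can be seen, with a median SD of 0.139 for members in the dimmest signal class and 0.0685 in the brightest.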
